A study of Mus musculus with 4 samples.

Results

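The genes of the insulin-like growth factor (IGF) system followed here were the ligand Igf1, the receptors Igf1r and Igf2r, the binding proteins Igfbp2 to Igfbp7, and the protease Pappa. They were chosen by name, with earlier results of these data known, as 10 of the 32285 genes counted in ovaries of 8-week-old mice. All 10 had UMIs (unique molecular identifiers, each standing for a captured RNA molecule) in all 4 single-cell libraries. Each condition had 2 libraries. Fosl2F/F mice carry Fosl2 alleles flanked by LoxP sites and no Cre. Fosl2cKO mice carry the same alleles together with Cyp19a1-Cre, a Cre recombinase driven by the aromatase promoter, which acts in granulosa cells (GCs) once they express aromatase. The Cre line was on C57BL/6J. All animals were females of one litter, with vaginal smears in estrus. Fosl2 encodes a subunit of the transcription factor AP-1. The labels tie no library to a named animal, so a p-value measures the spread between these libraries, and with 2 libraries a condition that spread is itself known poorly.

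IGF1 is a growth factor that binds the receptor tyrosine kinase IGF1R at the cell surface. The receptor signals through insulin receptor substrates to the PI3K and AKT kinases and to the RAS and MAPK kinases, and in the ovary it amplifies the response of GCs to follicle-stimulating hormone. IGF2R has no kinase domain and takes IGF2 into lysosomes. The binding proteins hold IGFs outside the cell and can restrain or prolong their action, and PAPPA, a secreted metalloprotease, cuts IGFBP4 and IGFBP5 and so frees the bound ligand.

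After filtering, 6760 to 19575 cells and 104303269 to 111314200 UMIs remained per library. The library Fosl2F/F 2 stood apart in depth, with a median of 3655 UMIs per cell against 11177 to 12465 in the others. Any pair of libraries shared 12 to 49 cell barcodes. Clusters were named by a score from lists of marker genes, so that "theca-like" means a cluster with its highest score for theca markers. Some named clusters had no marker of their list among their leading genes. A cluster that did not meet all rules for a name kept a number. For unnamed 13 and 16 the best list led the next by 0.0489 and 0.0617, under the limit of 0.1. In 22 populations every library had at least 20 cells. The largest was that of the GC-like cells (15800 cells), which was split further into mural-like, cumulus-like, atretic-like, mitotic-like and mitotic-antral-like cells and the unnamed sub-populations 4, 7 and 8. Connective tissue and muscle gave stromal-like cells (10520), pericyte or smooth muscle-like cells (1037) and the unnamed populations 13 (led by Myh11, Tagln and Acta2) and 16 (led by Enpep, Hhip and cell-cycle genes). Steroid-producing cells outside the GC layer were theca-like (5110) and luteal-like (2035). Vessels gave endothelial-like (1127) and lymphatic endothelial-like cells (327), the ovarian surface gave epithelial-like cells (689), and the immune cells were macrophage-like (1339), B lymphocyte-like (164), dendritic-like, and NK or T-like. Unnamed 7 held cells of low depth. The 10 genes and the other IGF pathway genes were kept out of the features used for clustering. Levels are UMIs of a gene scaled to the total UMIs of the population (CPM), and are compared between populations for 1 gene at a time. Where 4 values follow each other, they stand for Fosl2F/F 1, Fosl2F/F 2, Fosl2cKO 1 and Fosl2cKO 2.

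Fosl2 itself was measured first. In GC-like cells its level was 161, 167, 167 and 115 CPM. The log2 fold change of the libraries labelled Fosl2cKO over Fosl2F/F was -0.25 (SE 0.203, adjusted p = 1), which did not pass. On these levels the groups overlapped, since Fosl2cKO 1 was level with Fosl2F/F 2. After the scaling of libraries used in the tests (TMM, which evens out differences in composition), both Fosl2cKO libraries were below both Fosl2F/F libraries. The LoxP sites flank exons 2 and 4, and a tag at the 3′ end outside the deleted part would not show the deletion. Conditions are therefore called by their labels, and Fosl2cKO stands for the libraries so labelled.

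Igf1 lies on chromosome 10 (chr10:87858265-87937042, plus strand, GRCm38), Igf1r on chromosome 7 (chr7:67952827-68233668, plus strand, 21 exons) and Igf2r on chromosome 17 (chr17:12682406-12769664, minus strand, 48 exons). Igfbp2 (chr1:72824503-72852474, plus strand) and Igfbp5 (chr1:72857932-72874884, minus strand) are neighbours 5.5 kb apart, tail to tail. Igfbp3 (chr11:7206086-7213923) and Igfbp4 (chr11:99041244-99054392) lie far apart on chromosome 11. Igfbp6 is at chr15:102144362-102149511, Igfbp7 at chr5:77349240-77408041, and Pappa at chr4:65124174-65357509 with 22 exons. AP-1 dimers bind the TGANTCA element, and because the deleted gene encodes an AP-1 subunit the letters around each match are shown for the members that have one. In RefSeq windows on GRCm38.p6 reaching from 250 bases before to 50 after a start site, 9 of the 10 members had a window, 10 windows in all. TGANTCA, searched on both strands, occurred in 2 of these 10 windows and in 7.81% of all 32851 windows. TGACGTCA, a related element that TGANTCA does not match, occurred in 0 of the 10 and in 1.79% of all windows. The matches are printed 5′ to 3′ on the plus strand with the motif in capitals.
Igfbp2: gaaacaaaactTGAGTCAgtgaccaccggt
Igf1: gagctggaactTGAATCActattctggata
The Igfbp2 stretch is chr1:72825337-72825366, and its motif begins 39 bases before the RefSeq start site, inside an exon that GENCODE annotates as untranslated. The Igf1 stretch is chr10:87861063-87861092, with the motif beginning 37 bases before the start site, likewise inside an exon annotated as untranslated. A match describes these letters and is not a measured binding site.

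The ligand Igf1 was measured mainly in GC-like cells, which held 71.7% of its UMIs on average over the libraries, and in stromal-like cells, which held 16.6%. Among the 22 populations its highest level was in macrophage-like cells, at 252 ± 40.5 CPM (SD, n = 4), with 288, 269.9, 195 and 256 CPM in the libraries. GC unnamed 4, led by Amh and Cited1, followed at 233 ± 16.6 CPM, and its range lay within that of the macrophage-like cells. Amh is made by GCs of preantral and small antral follicles. Mitotic-antral-like (192 ± 43.8 CPM) and mitotic-like GCs (179 ± 24.5 CPM) came next, while mural-like (104 ± 30.5 CPM) and cumulus-like GCs (100.02 ± 35.8 CPM) were lower, with ranges that overlapped each other. Stromal-like cells averaged 107 ± 20.5 CPM. Endothelial-like (15.4 ± 0.477 CPM), theca-like (7.55 ± 1.998 CPM) and luteal-like cells (6.68 ± 2.14 CPM) were low. Of the immune cells other than macrophage-like cells, dendritic-like cells had 4.70 ± 3.07 CPM, NK or T-like cells 11.6 ± 2.25 CPM and B lymphocyte-like cells 27.3 ± 22.6 CPM, the last from 1 to 9 UMIs per library. The endothelial-like, theca-like and luteal-like means lay within this range and are not read as expression above free RNA.

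The share of cells with an Igf1 UMI gave the same grouping. With every cell thinned to 2000 UMIs, which left out 4.23% to 20.3% of the cells of a library, 22.8% ± 3.30 of GC-like cells, 24.9% ± 3.35 of macrophage-like cells and 16.2% ± 1.94 of stromal-like cells had a UMI of Igf1, against 1.17% of dendritic-like, 2.09% of NK or T-like, 1.78% of theca-like and 2.77% of endothelial-like cells. Without thinning the share of GC-like cells was 49.0% to 72.3%. Within the stromal-like cells, the cluster led by Mgp, Cxcl14 and Lum held 146 ± 28.0 CPM and the cluster led by Enpep, Asb4 and Tmem100 60.9 ± 7.08 CPM. A small further cluster led by Gsn, Clec3b, C3 and Dpt, with too few cells to count among the 22 populations, held 392 ± 148 CPM, more than macrophage-like cells in 3 of the 4 libraries.

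**Figure D1:**
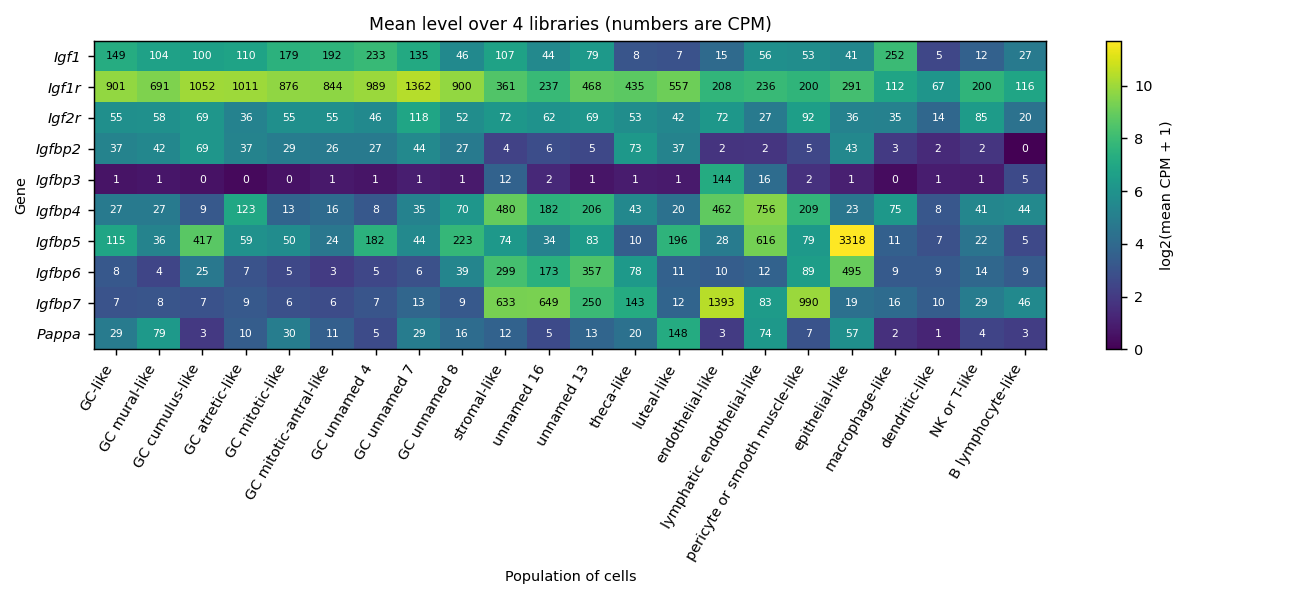
Mean level of each of the 10 genes over the 4 libraries in the 22 populations, with genes as rows and populations as columns. Colour is log2(mean CPM + 1) and the printed numbers are CPM. The map is read along a row: Igf1r is high across the GC columns, Igfbp5 peaks in epithelial-like cells at 3318 CPM, and Igfbp7 in endothelial-like cells at 1393 CPM, or 912 CPM without the library Fosl2cKO 2. Pappa has its highest mean in luteal-like cells at 148 CPM, or 74.7 CPM without that library, when mural-like GCs are higher at 95.2 CPM.

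The receptor Igf1r was present in all 22 populations and was highest in GCs. GC-like cells had 811, 914, 898 and 978 CPM and held 68.6% of its UMIs. Cumulus-like cells were at 1052 ± 95.9 CPM, atretic-like cells at 1011 ± 72.7 CPM, mitotic-like cells at 876 ± 98.1 CPM and mitotic-antral-like cells at 844 ± 137 CPM. Mural-like cells had the lowest mean of the GC sub-populations, 691 ± 109 CPM. Set against cumulus-like cells of the same library, they had less Igf1r in all 4 libraries, with a mean log2 ratio of -0.62 ± 0.232 (1 CPM was added to both levels in this and the following ratios). Outside the follicle epithelium the level went from luteal-like (557 ± 33.7 CPM) over theca-like (435 ± 108 CPM) and stromal-like cells (361 ± 69.7 CPM) to endothelial-like (208 ± 21.2 CPM) and pericyte or smooth muscle-like cells (200.2 ± 24.6 CPM). Macrophage-like (112 ± 15.6 CPM) and dendritic-like cells (67.2 ± 4.45 CPM) were at the bottom. Of the 21 pairs of neighbours in this order, 2 had ranges that did not overlap. Among the 22 populations macrophage-like cells thus had the highest mean level of the ligand and one of the lowest of its receptor.

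Igf2r had UMIs in all 22 populations. Its mean level ran from 14.0 CPM in dendritic-like cells to 118 CPM in GC unnamed 7, and no pair of neighbours in the order had separate ranges, although those of populations farther apart in it were separate. Pericyte or smooth muscle-like (91.8 ± 19.5 CPM) and NK or T-like cells (84.7 ± 18.3 CPM) were wholly above dendritic-like cells, whose highest library had 18.7 CPM. Endothelial-like (72.1 ± 11.2 CPM) and stromal-like cells (71.6 ± 21.2 CPM) came next, and GC-like cells averaged 55.1 ± 7.43 CPM. Mural-like cells exceeded atretic-like cells in all 4 libraries, at 58.1 ± 4.89 against 35.7 ± 6.53 CPM. Airn, a noncoding RNA transcribed from the opposite strand across the 5′ part of Igf2r (chr17:12741311-12860136, plus strand), had the pattern most like that of Igf2r, and reads that an antisense transcript shares with its partner can only be separated where counting uses strand, which is not stated in the sources used here.

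Of the binding proteins, Igfbp2 was found in follicular, steroid-producing and epithelial-like cells. GC-like cells held 49.6% of its UMIs, theca-like cells 31.0% and luteal-like cells 12.97%, or 5.45% without the library Fosl2F/F 2. Theca-like cells had 47.4, 26.9, 105 and 114 CPM, with a mean of 73.5 CPM. The means of cumulus-like GCs (69.5 CPM) and epithelial-like cells (42.9 CPM) rested on Fosl2cKO 2, and without it they were 32.1 and 21.4 CPM, against 59.9 CPM in theca-like, 36.5 CPM in luteal-like and 25.2 CPM in GC-like cells. Theca-like cells had the highest mean with all 4 libraries, and cumulus-like cells had it when Fosl2F/F 1 or Fosl2cKO 1 was left out. Within the theca-like cells the cluster led by Abcb1b and Star had 58.7, 34.9, 119 and 159 CPM while the cluster led by Cyp17a1, the enzyme that commits steroids to androgens, had 36.9, 9.63, 24.0 and 56.6 CPM. Stromal-like (3.88 ± 2.67 CPM), endothelial-like (2.35 ± 1.63 CPM) and dendritic-like cells (1.61 ± 2.01 CPM) were close to 0, and B lymphocyte-like cells had 0 UMIs. GC-like cells exceeded stromal-like cells in all 4 libraries, by a mean log2 ratio of 2.73.

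Igfbp3, which carries most IGF in blood plasma, was found in vessels and in a part of the stroma. Endothelial-like and lymphatic endothelial-like cells together held 60.1% of its UMIs on average. The share of endothelial-like cells was 60.3%, 69.99%, 30.3% and 74.3%, and that of stromal-like cells 20.1%, 19.1%, 57.4% and 18.99%, so that in Fosl2cKO 1 the stromal-like cells held the larger one. Endothelial-like cells had 106, 127, 110.1 and 232 CPM, all 4 above every library of lymphatic endothelial-like cells, which had 7.38 to 23.5 CPM. The UMIs of the stromal-like cells, 28.9% on average, came mainly from the small cluster led by Gsn, Clec3b, C3 and Dpt, genes known from adventitial fibroblasts. This cluster had 315, 719.9, 529.7 and 519.7 CPM of Igfbp3, whereas the other stromal clusters averaged 1.014 and 0.734 CPM. It had Igfbp3 itself among its 10 leading genes. It held 209 cells, 13, 66, 96 and 34 in the libraries, or 0.160%, 0.337%, 1.42% and 0.482% of all cells. GC-like cells had 0.511 ± 0.131 CPM.

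Igfbp4 was shared by stroma and endothelium. Stromal-like cells held 61.4% of its UMIs at 480.3 ± 151 CPM, and its range overlapped those of endothelial-like (462 ± 22.8 CPM) and lymphatic endothelial-like cells (756 ± 343 CPM). Every library of lymphatic endothelial-like cells was above every library of endothelial-like cells. In the stroma it was higher in the cluster led by Mgp (721 ± 123 CPM) than in the cluster led by Enpep (248 ± 127 CPM) in every library. GC-like cells averaged 26.6 ± 18.5 CPM. Atretic-like GCs, with 4.52, 245, 197 and 43.2 CPM, varied more between libraries than between conditions, and the Fosl2F/F values lay on both sides of those of Fosl2cKO.

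Igfbp5 had its highest level in the epithelial-like cells of the ovarian surface, as did Igfbp6, described below. Epithelial-like cells had 3352, 2854, 3710.4 and 3355 CPM, and made up 44.4% of its UMIs although they numbered only 689. Once thinned, 94.0% ± 1.87 of them had an Igfbp5 UMI against 0.756% of dendritic-like cells. GC-like cells held 34.7% of the UMIs, more than epithelial-like cells in Fosl2F/F 1 and Fosl2cKO 2, and luteal-like cells held 7.92% and stromal-like cells 6.98%. Cumulus-like cells had 556, 308, 224 and 581 CPM, mural-like cells 15.5, 37.7, 65.3 and 26.6 CPM. Cumulus-like cells were above mural-like cells in all 4 libraries, with a mean log2 ratio of mural over cumulus of -3.56 ± 1.48. Theca-like cells had 10.0 ± 2.88 CPM.

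Igfbp6, which prefers IGF2 to IGF1, was a mesenchymal and surface gene. Of the 22 populations, epithelial-like cells (495 ± 135 CPM), unnamed 13 with its smooth muscle genes (357 ± 44.9 CPM) and stromal-like cells (299 ± 40.4 CPM) led, and the stroma held 53.4% of the UMIs. The stromal cluster led by Gsn and Dpt had 1514 ± 408 CPM against 314 ± 23.3 and 234 ± 38.8 CPM in the other stromal clusters. Theca-like cells averaged 78.5 ± 32.1 CPM and GC-like cells 8.23 ± 2.30 CPM. Inside the follicle cumulus-like cells had more than mural-like cells in all 4 libraries, 24.5 ± 8.63 against 4.45 ± 1.76 CPM.

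Igfbp7, which binds IGFs weakly and is known from vessel walls, was highest in endothelial-like (991, 979, 767 and 2837 CPM) and pericyte or smooth muscle-like cells (566, 576, 567 and 2251 CPM). Stromal-like cells held 51.1% of its UMIs and endothelial-like and lymphatic endothelial-like cells 17.6%. Igfbp7 separated blood from lymphatic vessels, since lymphatic endothelial-like cells had 54.6 to 119 CPM. GC-like cells were at 7.02 ± 4.38 CPM, lower than stromal-like cells in all 4 libraries by a mean log2 ratio of -6.18.

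Pappa was found mainly in GCs and in luteal-like cells. GC-like cells held 46.2% ± 29.2 of its UMIs and luteal-like cells 33.4% ± 31.0, and these shares differed widely between libraries. GC-like cells held 81.8%, 31.0%, 56.6% and 15.5%, and luteal-like cells 1.5%, 48.3%, 14.5% and 69.4%. Without Fosl2cKO 2 the mean luteal share was 21.4%. Mural-like cells had 76.0, 142, 67.3 and 31.9 CPM, cumulus-like cells 1.85, 5.79, 2.74 and 1.15 CPM, and atretic-like cells 5.95, 18.4, 10.5 and 4.91 CPM. Mitotic-like cells had 29.3, 48.0, 31.1 and 10.6 CPM and held 14.3% ± 8.48 of the UMIs. Mural-like cells thus exceeded cumulus-like cells in every library by a mean log2 ratio of 4.32 ± 0.346 and atretic-like cells by 2.85 ± 0.448. Of the substrates of the protease, Igfbp5 was the higher in cumulus-like cells in all 4 libraries. Igfbp4 was the higher in mural-like cells in all 4, with log2 ratios of mural over cumulus of 0.83, 0.29, 2.43 and 0.80. Its ranges overlapped, with 8.22, 15.96, 73.9 and 9.34 CPM in mural-like and 4.17, 12.88, 12.91 and 4.92 CPM in cumulus-like cells. NK or T-like cells had 33.4, 74.2, 34.9 and 20.7 CPM of Igfbp4, and dendritic-like cells averaged 8.07 CPM. Only mural-like cells of Fosl2cKO 1 exceeded NK or T-like cells of their library. The Igfbp4 contrast is otherwise not read as expression above free RNA. Luteal-like cells had 12.3, 163, 49.1 and 366 CPM of Pappa, and were above mural-like cells in Fosl2F/F 2 and Fosl2cKO 2 and below them in the other libraries. They comprised a cluster led by Akr1c18, Ptgfr and Onecut2, genes of the regressing corpus luteum, with 12.9, 8.59, 13.5 and 97.5 CPM of Pappa. Another, led by Hsd17b7, Runx2 and Ces2a and by no listed luteal marker, had 0, 202, 51.1 and 395 CPM. Its 0 came from 62 cells with a median of 1494.5 UMIs, against 8391 to 15633 in the other libraries. Without integration the cluster led by these genes stayed unnamed and had 4 cells of Fosl2F/F 1. The cluster led by Akr1c18 held 111 of 173 luteal-like cells in Fosl2F/F 1 but 32 of 289 in Fosl2cKO 2. Epithelial-like (56.5 ± 12.7 CPM) and lymphatic endothelial-like cells (73.8 ± 32.5 CPM) also had Pappa.

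**Figure D2:**
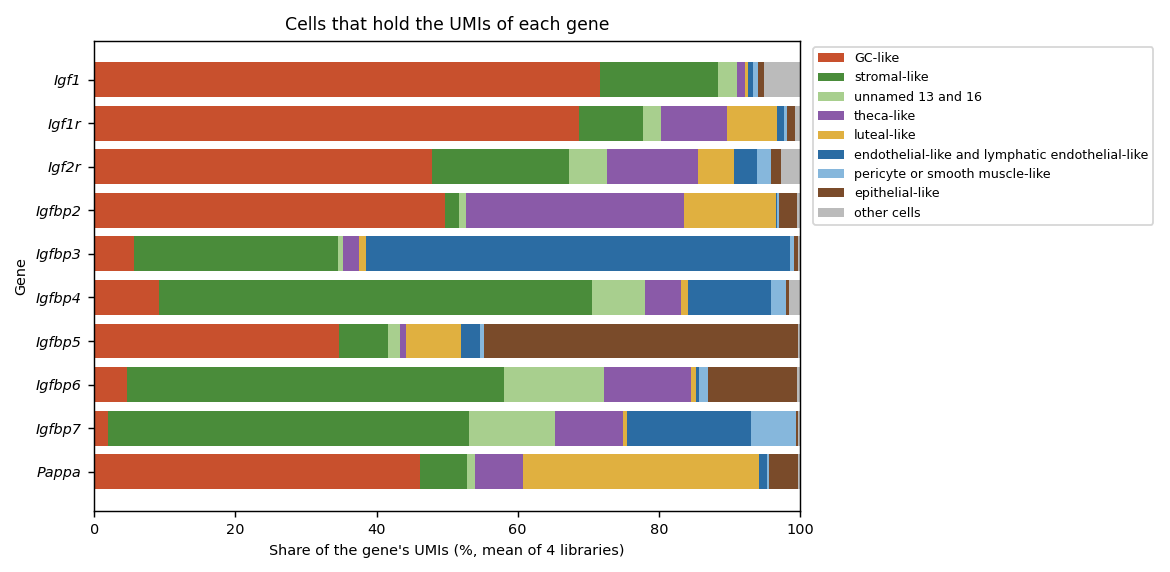
Share of each gene's UMIs (percent, mean of the 4 libraries) held by each population or group of populations, as 1 stacked horizontal bar per gene. GC-like cells hold 71.7% of Igf1 and 68.6% of Igf1r, stromal-like cells 61.4% of Igfbp4, 53.4% of Igfbp6 and 51.1% of Igfbp7, and endothelial-like with lymphatic endothelial-like cells 60.1% of Igfbp3.

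The conditions were compared within each population with edgeR's quasi-likelihood test on summed UMIs, adjusted over all genes of the population. A test passed at an adjusted p under 0.1 with a log2 fold change over 0.25 in size. Of 220 pairs of member and population, 167 had enough UMIs to be tested, and 2 of these tests passed, against a background of 0.0872% of the 238595 tests of all genes. A member can enter this count through the condition in which it is high. DESeq2 called 8 tests, 7 of Igfbp2 and 1 of Pappa. The share of all genes that DESeq2 called is not given here, so this count has no background beside it. Before adjustment, 35 of the 167 tests had p under 0.05, where 5.65% of all tests did. The members were chosen with earlier results of these data known, so setting these counts against all genes tests nothing about the list. In GC-like cells the median log2 fold change was 0.15 over the 10 members and -0.02 over all 17268 genes tested, and in stromal-like cells it was 0.51 and -0.0018. The populations come from the same 4 libraries, and GC-like cells contain the GC sub-populations, so these counts are not independent of each other. Counts of populations in which the groups were separate are given on the TMM scale of the test, and the printed CPM use plain totals, so the answer can differ where libraries are close.

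Igfbp2 rose in mural-like GCs of the libraries labelled Fosl2cKO. The level was 14.7 and 12.5 CPM in Fosl2F/F and 75.6 and 63.8 CPM in Fosl2cKO, from 313, 84, 708 and 444 UMIs, and the groups were far apart. The log2 fold change was 2.28 (SE 0.222, adjusted p = 0.0975), which passed. In these cells 2 of 13223 genes passed as higher, 0.0151%. The adjusted p was near the limit, and the call was lost without Fosl2F/F 1 (0.492), without Fosl2F/F 2 (0.142) and with another scaling of the libraries (0.124), while the log2 fold change stayed between 2.17 and 2.44. Without integration 1507 of the 1540 mural-like cells came from Fosl2F/F 1, so that these cells are matched between libraries by the integration and no value could be had without it. The share of mural-like cells with a UMI, thinned, was 2.60% and 1.76% in Fosl2F/F and 12.8% and 12.9% in Fosl2cKO. Unthinned it was 15.1%, 6.36%, 64.2% and 54.0%, and the thinned share of dendritic-like cells was 0.210%.

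The other GC sub-populations had Igfbp2 values of the same direction, though none of them passed in this test. Of the 9 settings tried other than leaving out a library and crossing the libraries, 3 called Igfbp2 in mitotic-like, mitotic-antral-like and all GC-like cells, and DESeq2 called 7 of the 15 populations tested. No share over all genes is given for these settings. When 1 library was left out, the log2 fold change ran from 1.80 to 2.42 in GC-like and from 0.82 to 2.85 in cumulus-like cells. Calls from these fits are not read as results, because 1 condition then had a single library. Mitotic-like cells had 8.30 and 11.3 against 39.6 and 55.4 CPM (log2 fold change 2.26, SE 0.263, adjusted p = 0.203). Unnamed 4 had 7.75 and 12.1 against 36.4 and 53.5 CPM (2.14, SE 0.309, adjusted p = 0.168). In cumulus-like cells 1 library made most of the difference, with 29.96 and 19.8 against 46.4 and 182 CPM (2.16, SE 0.516, adjusted p = 0.351). All GC-like cells together had 11.9 and 15.1 against 48.5 and 72.4 CPM (2.14, SE 0.259, adjusted p = 0.341).

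The values were not limited to GC-like cells. In theca-like cells Igfbp2 was at 47.4 and 26.9 against 105 and 114 CPM (log2 fold change 1.53, SE 0.314, adjusted p = 0.386). The summed level of 11 granulosa markers in theca-like cells was 1633, 664, 475 and 705 CPM, and their part in this value was not tested. By cluster, the groups were separate in the theca-like cluster led by Abcb1b and Star, at 58.7 and 34.9 against 119 and 159 CPM. They overlapped in the cluster led by Cyp17a1, at 36.9 and 9.63 against 24.0 and 56.6 CPM. Epithelial-like cells had 13.3 and 21.3 against 29.5 and 107 CPM (1.85, SE 0.482, adjusted p = 0.356). Luteal-like cells, by contrast, had 24.8 and 39.5 against 45.1 and 39.0 CPM, with overlapping groups (0.25, SE 0.324, adjusted p = 0.764), and the 7 populations that could not be tested had at most 5.91 CPM in any library. Altogether Igfbp2 was tested in 15 populations. The groups were fully separate, with both Fosl2cKO libraries above both Fosl2F/F libraries, in 11 of these 15, where 16.8% of all tests were separate in this direction, and in 12 of them p was under 0.05 before adjustment. The log2 fold changes ran from 0.19 to 2.28 with a median of 1.86. In a test of the difference between populations, the fold change in GC-like cells exceeded that in stromal-like cells by 1.13 (SE 0.337, adjusted p = 1), which did not pass.

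**Figure D3:**
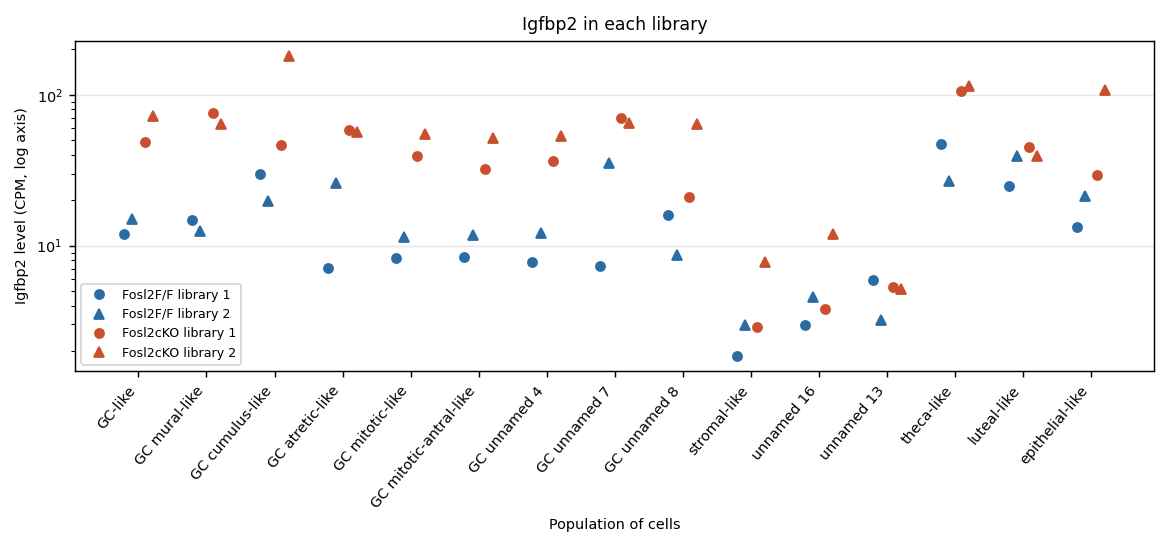
Igfbp2 level (CPM, log axis) in each library for the populations with at least 4 UMIs in every library. Circles stand for library 1 and triangles for library 2 of a condition, blue for Fosl2F/F and orange for Fosl2cKO. In mural-like GCs both orange points (75.6 and 63.8 CPM) lie far above the blue ones (14.7 and 12.5 CPM), and in luteal-like cells the colours overlap.

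Igf1r in B lymphocyte-like cells was the other test that passed. The level was 193 and 183 CPM in Fosl2F/F against 53.7 and 36.5 CPM in Fosl2cKO (log2 fold change -2.25, SE 0.533, adjusted p = 0.0422), and 0.933% of the 2250 genes tested in these cells passed as lower. It rested on 30, 6, 4 and 5 UMIs in 52, 27, 31 and 54 cells. The summed granulosa markers in these B lymphocyte-like cells were 2925 and 731 against 349 and 599 CPM, so that they moved with it, with 0 of the 11 at zero. Their part in the result was not tested. DESeq2 did not call it (adjusted p = 0.9994), and without Fosl2F/F 1, Fosl2cKO 1 or Fosl2cKO 2 it had adjusted p = 0.861, 0.3698 and 0.3785. With only cells over 2000 UMIs, or with double the doublet removal, a library had fewer than 20 of these cells and the test could not be made. In GC-like cells Igf1r had a log2 fold change of 0.09 (SE 0.170), and in stromal-like cells it was close to 0 (SE 0.285).  In mitotic-antral-like cells it was at 690.3 and 768 against 936 and 981 CPM (0.34, adjusted p = 0.494).

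Igf1 passed in none of 19 populations by edgeR, and in 0 of them was p under 0.05. In GC-like cells the log2 fold change was -0.04 (SE 0.199), in mural-like cells -0.17 (SE 0.326), in stromal-like cells 0.14 (SE 0.285) and in macrophage-like cells -0.35 (SE 0.291). The median over the populations was -0.09. For Igf2r the fold changes of all 19 tests were above 0, from 0.08 to 1.02 with a median of 0.30, and both Fosl2cKO libraries were above both Fosl2F/F libraries in 9 of the 19 (10 on plain CPM), where 16.8% of all tests were separate in this direction. None passed, and p was under 0.05 in luteal-like (22.2, 29.4, 48.4 and 67.2 CPM, 1.02, SE 0.312, adjusted p = 0.375) and macrophage-like cells (22.2, 25.8, 52.4 and 38.7 CPM, 0.91, SE 0.305, adjusted p = 0.58). The lowest Igf2r of the 4 libraries was often that of Fosl2F/F 1, whose level had a median ratio of 0.651 to the mean of the other libraries.

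**Figure D4:**
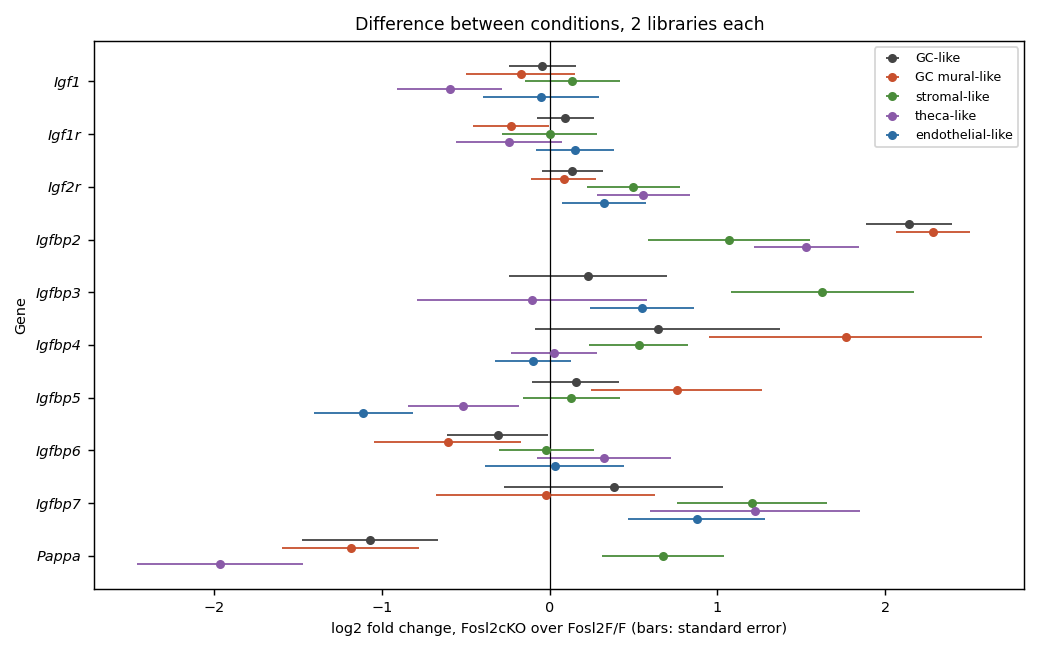
Log2 fold change of Fosl2cKO over Fosl2F/F (points, with bars of 1 SE, from edgeR) for each gene in GC-like, mural-like, stromal-like, theca-like and endothelial-like cells where it was tested. Igfbp2 lies to the right of 0 in the 4 populations shown, at 2.28 in mural-like GCs, Pappa lies at -1.97 in theca-like and 0.68 in stromal-like cells, and Igf1 and Igf1r lie close to 0 in GC-like cells.

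Igfbp7 passed in none of 18 tests by edgeR, 6 of which had p under 0.05, and 1 library stood apart. It passed in 7 populations without a filter on low counts, a setting for which no share over all genes is given. In stromal-like cells the level was 389.6, 346, 375 and 1421 CPM, and in endothelial-like cells 991, 979, 767 and 2837 CPM. The library Fosl2cKO 2 stood above the other 3 in 16 of the 17 populations with at least 10 UMIs in every library, the exception being lymphatic endothelial-like cells, with a median ratio of 2.98 to the mean of the others and a range of 1.16 to 5.44. With all libraries the log2 fold change was 1.21 in stromal-like (SE 0.447, adjusted p = 0.823) and 0.88 in endothelial-like cells (SE 0.410, adjusted p = 1). Without Fosl2cKO 2 it was -0.03 and -0.38. Both stromal clusters with the most cells had the same pattern, with 350.1, 295, 264 and 1119 CPM and with 423, 383, 494 and 1699 CPM. In unnamed 16 the groups were separate, with 268 and 362 against 505 and 1459.8 CPM (1.55, SE 0.399, adjusted p = 0.323), and the library Fosl2cKO 1 was also above both Fosl2F/F libraries. Luteal-like cells had 6.27 and 8.12 against 12.2 and 23.3 CPM (1.15, SE 0.443, adjusted p = 0.4403). Within their clusters the groups overlapped. The cluster led by Akr1c18 had 5.69 and 11.96 against 10.8 and 24.8 CPM. The cluster led by Hsd17b7 had 17.6 (from 3 UMIs) and 7.15 against 12.2 and 23.2 CPM. They held 111, 344, 14 and 32 cells and 62, 899, 316 and 257 cells, and the part of this mix was not tested. Both Fosl2cKO libraries were above both Fosl2F/F libraries in 5 of the 18 tests (4 on plain CPM), where 16.8% of all tests were separate in this direction. Igfbp7 and Fosl2 are both on chromosome 5, 45191.4 kb apart.

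**Figure D5:**
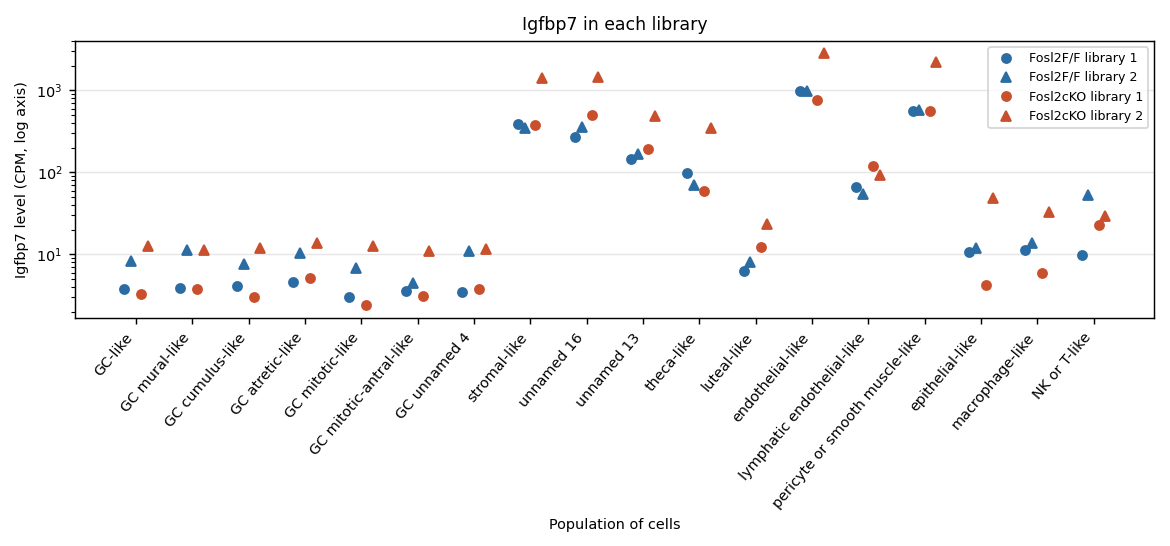
Igfbp7 level (CPM, log axis) in each library for the populations with at least 4 UMIs in every library, with the symbols of the Igfbp2 plot. The orange triangle, Fosl2cKO 2, lies above the other 3 points in nearly every population, at 1421 CPM in stromal-like and 2837 CPM in endothelial-like cells, while the orange circle, Fosl2cKO 1, is at 375 and 767 CPM there.

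None of 15 tests of Pappa passed by edgeR, and 4 of them had p under 0.05. It passed in 3 populations without a filter on low counts and in 1 by DESeq2, settings for which no share over all genes is given. Mural-like cells had 76.0 and 142 against 67.3 and 31.9 CPM (log2 fold change -1.19, SE 0.407, adjusted p = 0.937). In theca-like cells it was 23.1 and 38.9 against 3.74 and 12.7 CPM (-1.97, SE 0.495, adjusted p = 0.639). The summed granulosa markers in theca-like cells, given above, were lowest in Fosl2cKO 1, as Pappa was, and highest in Fosl2F/F 1, while Pappa was highest in Fosl2F/F 2. Their part in this value was not tested. Of the GC sub-populations tested only mural-like cells had separate groups, and mitotic-antral-like cells had 8.43 and 13.3 against 10.6 and 10.7 CPM (-0.06, SE 0.341). Luteal-like cells, with the widely differing levels given above, had a log2 fold change of 1.11 (SE 1.24, adjusted p = 0.731). Stromal-like cells had 7.06 and 10.5 against 19.7 and 9.59 CPM (0.68, SE 0.365), with overlapping groups. Of the 15 populations tested, both Fosl2cKO libraries lay below both Fosl2F/F libraries in 5, where 16.7% of all tests were separate in this direction. The difference between GC-like and stromal-like cells in the fold change was -1.83 (SE 0.205, adjusted p = 1) and did not pass among the 17780 genes tested. Without a filter on low counts it had an adjusted p of 0.0102. Between mural-like and atretic-like GCs none of the 9 members tested passed by edgeR among 13891 genes and 0 had p under 0.05, with a difference of 0.22 (SE 0.558) for Igfbp2 and of -0.61 (SE 0.277) for Pappa.

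The remaining binding proteins, Igfbp3 to Igfbp6, passed in no population by this edgeR test or by DESeq2. Other settings called some of them. Without integration edgeR called Igfbp4 in 1 population, and without a filter on low counts Igfbp3 in 1, Igfbp4 in 2 and Igfbp5 in 3. No share over all genes is given for these settings. Calls also appeared when 1 library was left out, but are not read as results, because 1 condition then had a single library. Igfbp6 was called in none of these settings. Igfbp5 had p under 0.05 in 6 of 20 tests, 4 of them higher and 2 lower. In mitotic-antral-like GCs it was at 9.10 and 17.4 against 42.6 and 27.6 CPM (log2 fold change 1.39, SE 0.359, adjusted p = 0.372), and in mitotic-like GCs at 24.0 and 41.97 against 82.3 and 51.2 CPM (0.998, SE 0.312, adjusted p = 0.526). Endothelial-like cells had 37.2 and 38.8 against 18.2 and 17.1 CPM (-1.11, SE 0.296, adjusted p = 0.241). The summed granulosa markers in the endothelial-like cells were 594 and 383 against 200 and 189 CPM, with 0 of 11 at zero, and their part in this value was not tested. Luteal-like cells had 461, 144, 37.5 and 141 CPM (-1.90, SE 0.779, adjusted p = 0.458), and their summed luteal markers, 13491, 7973, 3950 and 6733 CPM, had the same order of libraries. The part of these markers in this value, and that of the differing mix of luteal-like clusters, was not tested.

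Igfbp3 in stromal-like cells was at 3.11, 8.26, 29.4 and 7.22 CPM (1.63, SE 0.544, adjusted p = 0.629), with overlapping groups. It was highest in Fosl2cKO 1, where the cluster led by Gsn and Dpt made up 1.42% of all cells. It was lowest in Fosl2F/F 1, where that cluster made up 0.160%. Fosl2F/F 2, with 0.337%, was above Fosl2cKO 2, with 0.482%, and the part of the cluster in this value was not tested. Within that cluster, at the levels given above, the Fosl2cKO libraries lay between those of Fosl2F/F. In endothelial-like cells, the main site of Igfbp3, the log2 fold change was 0.55 (SE 0.309, adjusted p = 1). Igfbp4 had -0.10 (SE 0.229) there and 0.53 (SE 0.293) in stromal-like cells, where 353 and 414 CPM stood against 698 and 457 CPM. Igfbp6 had 0 tests with p under 0.05 among 16, with -0.02 (SE 0.282) in stromal-like and -0.03 (SE 0.346) in epithelial-like cells.

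The other genes of the pathway, a list of 49, were measured in the same way. None of their 821 tests passed by edgeR, and DESeq2 called 3, with no share over all genes given for it. By edgeR 55 of the 821 had p under 0.05 before adjustment, where 5.65% of all tests did. This list, too, was chosen with earlier results of these data known. Igf2, the fetal ligand, was highest in lymphatic endothelial-like cells at 74.4 ± 16.3 CPM, and the insulin genes Ins1 and Ins2 were too low to test anywhere. The insulin receptor Insr was a vessel gene, with 648, 583, 523 and 565 CPM in endothelial-like cells, where Igf1r was low, and 26.0 ± 13.8 CPM in dendritic-like cells. Stanniocalcin 1, encoded by Stc1 and able to block PAPPA, was highest in unnamed 16 at 99.7 ± 22.4 CPM and had 42.4 and 64.6 against 152 and 115 CPM in theca-like cells (log2 fold change 1.29, SE 0.296, adjusted p = 0.551), where Pappa had its lowest fold change. Grb14, an adaptor that blocks insulin receptor signalling, reached 1199 ± 233 CPM in atretic-like GCs. Of the PI3K and AKT arm, the transcription factor Foxo1 was at 949, 579, 543 and 1032 CPM in GC-like cells (0.01, SE 0.384), with overlapping groups. In this arm 10 of 413 tests (2.42%) had p under 0.05. The share was 23.1% of 26 tests for Pappa2 and the stanniocalcins and 18.2% of 11 for the other binding proteins. It was 7.97% of 138 for the adaptors and 4.76% of 21 for the other receptors. Of the MAPK arm 25 of 210 tests (11.9%) had p under 0.05, where 5.65% of all tests did, 24 of them with a higher value in Fosl2cKO. These tests repeat 10 genes over nested populations of the same 4 libraries. Map2k2 accounted for 11 and Hras for 8 of the 24, and Map2k2 was at 79.8 and 109 against 148 and 138 CPM in GC-like cells (0.58, SE 0.182, adjusted p = 0.98).

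The genes most like each member were sought by Pearson's r of log2(CPM + 1) over 84 points, 21 populations in 4 libraries, among 11536 genes. The points share libraries and differ in depth, so r is a description. Igf1 was most like Abcd2 (0.84) and Lpl (0.72), Igf1r most like Spsb1 (0.92) and Mboat2 (0.92), and Igf2r most like Airn (0.78). Igfbp2 followed Igsf11 (0.79), Igfbp4 followed Cavin3 (0.81), Igfbp5 followed Daam1 (0.78) and Igfbp6 followed Bicc1 (0.88), which was itself among the stromal markers. Igfbp3 went with the endothelial genes Shank3 (0.87), Gata2 (0.86) and Ptprb (0.84), Igfbp7 with Npr3 (0.88) and Grb10 (0.88), and Pappa with Jph1 (0.80). Among the members themselves, Igfbp4 and Igfbp7 (0.76) and Igf1r and Igfbp2 (0.73) were the most alike.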

How the data were processed

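Ovaries were profiled with a 10x Genomics 3′ kit. The authors deposited 1 matrix of raw UMI counts per library, made with Cell Ranger on GRCm38 and not normalized. The matrix headers name version 7.1.0, while the methods give an older release, and it is not stated whether intronic reads were counted or whether the ambient RNA correction of the methods is in the deposited counts. The submitters' processing notes also name Seurat 4.1.0.

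A barcode was kept as a cell if it had 500 genes or more, more than 1000 UMIs, a mitochondrial share under 10% and a hemoglobin share under 0.1%. The cells with the highest Scrublet scores (scanpy 1.11.5) were removed as doublets at 0.8% per 1000 cells, 614, 4723, 412 and 450 cells of the 4 libraries. SCTransform (sctransform 0.4.2), reciprocal PCA anchors in Seurat 5.3.0 (3000 features without IGF genes, 30 dimensions) and Louvain clustering (resolution 0.8, and 0.5 within GC-like cells) gave the clusters, which were named by marker lists. The UMIs of a population were added up in each library if no library had fewer than 20 of its cells, filtered by filterByExpr, scaled by TMM and compared with edgeR 4.0.16 (quasi-likelihood test, Benjamini-Hochberg adjustment over all genes of a population). DESeq2 1.42.0 was an alternative. Differences between populations were tested as interaction terms with the library as a block. When 200 genes were given a fold of 2 in simulated counts, edgeR found 81.5% in GC-like (17304 genes) and 90.5% in stromal-like cells (15425). It found 69.0% in endothelial-like cells (11262), and false calls were 23, 16 and 7. The interaction test found 36.0%, 40.5% and 25.0% in simulations of the same cells. Only genes with enough UMIs were changed, and the simulated spread was fixed and the same for all genes. These shares therefore need not hold for the real libraries, and a test that did not pass does not show an absent change. CPM used plain totals, and counts of separate groups used TMM-scaled levels.

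The members and lists were chosen with earlier results of these data known. Named genes are the members, the pathway gene with the highest level of most roles, the genes most like each member, and Fosl2. Igfals (other binding proteins) and Braf (MAPK arm) also had the highest level of their role, but their values are not given. Map2k2, Hras, Ins1 and Ins2, and the leading genes of clusters, were named after their values were seen. Coordinates are those of GENCODE M21. The 4 libraries all entered the analysis, and 0 columns stayed unused.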

Additional observations from a re-analysis of the deposited data

Results flagged for a closer look

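A member's fold change between conditions was set aside for a closer look where both libraries labelled Fosl2cKO lay on one side of both Fosl2F/F libraries in some populations and on the other side in others. The difference between these populations was not tested, and among all genes 16.8% of tests had both Fosl2cKO libraries above and 16.7% had both below. Whether libraries lay apart was judged on the TMM scale of the tests. On plain CPM the groups overlapped for Igf1 in GC unnamed 4, Igf1r in endothelial-like, dendritic-like and luteal-like cells, and Igfbp4 in NK or T-like cells. All values are log2 fold changes of Fosl2cKO over Fosl2F/F.

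Igf1 was at 0.84 in lymphatic endothelial-like cells, and at -0.18 in GC unnamed 4, -0.35 in macrophage-like, -0.42 in pericyte or smooth muscle-like and -0.60 in theca-like cells. Igf1r was at 0.34 in mitotic-antral-like and 0.22 in mitotic-like GCs, 0.42 in GC unnamed 7, 0.40 in NK or T-like, 0.15 in endothelial-like and 0.21 in pericyte or smooth muscle-like cells, and at -2.25 in B lymphocyte-like cells, -0.31 in GC unnamed 8, -0.20 in dendritic-like and -0.16 in luteal-like cells.

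Igfbp4 was at 0.91 in GC unnamed 8, 0.45 in epithelial-like, 0.69 in pericyte or smooth muscle-like and 0.53 in stromal-like cells, and at -0.90 in mitotic-antral-like GCs, -0.88 in NK or T-like and -0.099 in endothelial-like cells. Igfbp5 was at 1.39 in mitotic-antral-like and 0.998 in mitotic-like GCs, 2.31 in GC unnamed 7 and 1.02 in pericyte or smooth muscle-like cells, and at -0.73 in NK or T-like, -1.11 in endothelial-like, -1.90 in luteal-like and -0.78 in macrophage-like cells.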

How the results depend on the processing

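Fosl2 in GC-like cells kept its side of the threshold in every setting tried. The 2 member tests that passed became 8 with DESeq2, 1 with DESeq2's size factors in edgeR (RLE), 1 at an adjusted p under 0.05 with no minimum fold, 1 with cells over 2000 UMIs and 1 with double the doublet removal (B lymphocyte-like cells were then too few to test), 27 of 219 without a filter on low counts, and 0 to 21 when 1 library was left out (0 without Fosl2F/F 1, 6 without Fosl2F/F 2, 21 without Fosl2cKO 1, 13 without Fosl2cKO 2). With 1 library left out, 1 condition had a single library, so these counts only record the setting and are not read as calls. In these fits the log2 fold change of Igfbp2 in GC-like cells ran from 1.80 to 2.42. Without integration 3 of 101 passed, 1 of them Igfbp4. Without the filter the calls included Igfbp2 in 10 populations, Igfbp7 in 7, Pappa and Igfbp5 in 3 each, Igfbp4 in 2 and Igfbp3 in 1. The 0 pathway tests became 3 with DESeq2, 18 without the filter and 1 to 16 when 1 library was left out. Deviations of same-numbered libraries from their condition means had correlations of -0.231 to 0.101. These values do not show that the numbers pair the libraries, and with 2 libraries a condition they cannot exclude it. With the number as a replicate block 5 member and 1 pathway tests passed. With the crossed replicate block, chosen after seeing the data, 14 member and 4 pathway tests passed, Igfbp2 in 7 populations, Igfbp5 and Pappa in 2 each, and Igf1r, Igfbp3 and Igfbp7 in 1 each among the members. Igfbp7 reversed without Fosl2cKO 2, to -0.38 in endothelial-like and -0.033 in stromal-like cells, against 1.54 and 1.87 without Fosl2cKO 1. Between GC-like and stromal-like cells 1 member (Pappa) differed without the filter. The cause of these changes was not tested. No share over all genes is given for any of these settings, so their counts of members and pathway genes have no background beside them. They do not show that the list stands out from other genes. The thinned share of cells with Igf1 was 12.6% in GC-like, 14.95% in macrophage-like and 9.31% in stromal-like cells at 1000 UMIs, which follows from fewer UMIs per cell. Of 180 ratios between populations 178 moved by less than the spread between libraries. Leaving out 1 library moved none of 200 by more. A mean of 4 values cannot shift by more than their SD in this way, so this was no check. Low counts limit Igfbp3, testable in 4 of 22 populations.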

Other observations

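Oocyte-like cells, 132 in all with 17 to 66 per library, were too few for a comparison. They had 185, 284, 137 and 418 CPM of Igf1r and 0, 34.7, 0 and 16.7 CPM of Igf1, from 0 to 11 UMIs of Igf1 per library. Igf2r in the same cells was at 21.7, 69.4, 68.6 and 106 CPM, and Pappa had 1 UMI in the 4 libraries together.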
